A study of Mus musculus with 2 samples.

Results

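Glycolysis and the response to low oxygen were examined through 38 genes in M/E cells, a mouse line made from bone marrow by expression of MLL/ENL, a leukaemia fusion gene. The rule that sets the members uses names and known roles, and no measured value enters it, although the set was drawn up with earlier results of these data known. It holds 18 glycolytic enzymes, 6 regulators and transporters of glycolysis, 6 genes of oxygen sensing and the hypoxia-inducible factor (HIF), and 8 hypoxia response targets. A gene was matched through the name printed in the array files or an older symbol, so that Pkm was read as Pkm2 and Vhl as Vhlh. In this way 37 of the 38 genes had a probe of their name, with 61 probes of the 41174 on the array and 27670 genes in all. Gapdh had none under its own name. 34 members were measured on both arrays, among 16570 genes measured in all.

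Both groups carried the genotype M/E-Mef2c del/-, which the labels describe as lacking a functional form of the transcription factor Mef2c. The control culture received the empty retroviral vector MYs-iPAC. The second culture received the same kind of vector with MEF2C-ASR, a form of Mef2c mutated in its binding of histone deacetylases and labelled as constitutively active. Both were selected with puromycin and grown in medium with SCF at 100 ng/ml and with IL3, IL6 and GM-CSF at 10 ng/ml. RNA of harvests at 6, 24 and 48 h was pooled within each culture, so a value is an average over the 3 times. Each group was 1 pooled RNA on 1 Agilent one-colour array. There was therefore no replicate check. The values compare these 2 RNA pools, no test was run, and "higher" and "lower" refer to the MEF2C-ASR array against the control array.

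Glycolysis splits glucose into pyruvate and yields ATP without oxygen, and lactate dehydrogenase reduces the pyruvate to lactate. When oxygen is sufficient, the prolyl hydroxylases encoded by the Egln genes mark the HIF alpha subunits for destruction through the von Hippel-Lindau protein. When oxygen is scarce the alpha subunits persist, pair with Arnt and bind a short DNA core, and genes of glycolysis, glucose uptake, blood vessel growth and acid-base balance are transcribed. Proliferating myeloid cells use glycolysis heavily in oxygen as well, and HIF activity is known to matter for their energy supply.

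The labels were checked first. Of the 2 Mef2c probes, 1 was above background and read 794.9 in the control and 1969 with MEF2C-ASR, 2.54-fold higher. The other did not pass background on either array, and the files do not say whether the first also reads the transcript of the vector. The signal in the control was thus above background although the labels give no functional Mef2c there, and it is not known here whether this probe lies in the deleted part, so it does not check the deletion. All 5 haematopoietic markers and all 9 myeloid progenitor markers were above background on both arrays, whereas Ebf1 of B cells, Cd3g of T cells and Cdh5 of endothelium were not above background on either. The 9 myeloid progenitor markers were all higher on the MEF2C-ASR array as reported, by 0.02 (Ctsg) to 1.62 (Csf1r) on the log2 scale. Under other scalings of the arrays Ctsg ran from -0.12 to 0.04, so no direction is given for it. The summed signal of the 9, in units of each array's 75th percentile, was 263.9 in the control and 346.1 with MEF2C-ASR. Most of this rise came from Mpo, at 68289 and 143027. The part of this shift of markers in the values below was not tested. In such bulk RNA, fewer cells of a type and less RNA per cell cannot be told apart. The control array had 60.1% of its 43379 spots well above background and the MEF2C-ASR array 67.5%.

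The core that HIF binds is A or G followed by CGTG, and it was searched on both strands, as ACGTG (the A form) and as GCGTG (the G form), in the 250 bases before each gene start in a RefSeq table of mouse promoters, build GRCm38.p6. The palindrome CACGTG, the E-box of many other factors, contains ACGTG on each strand and so is counted with it. Of the 38 members 35 had an entry, with 50 starts in all, while Slc2a3, Epas1 and Ndrg1 were not matched. ACGTG stood in 48.0% of the members' windows, beside 16.6% of the 32851 windows in the table. GCGTG stood in 54.0% of the members' windows and 28.2% of all. By role, ACGTG was in 10 of 29 windows of the enzymes, 4 of 7 of the regulators and transporters, 4 of 6 of oxygen sensing and 6 of 8 of the targets. A match is a description of letters and not a site of binding, and many of these genes are known for such sites.

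The windows of 5 members are printed below, 5′ to 3′ on the gene's own strand, from 250 bases before the start up to the start, with both forms of the core, on either strand, in capitals. Car9, Adm and Ddit4 are shown because they were among the members farthest apart between the arrays. Pgk1 and Ldha are shown because they are glycolytic enzymes well known as HIF targets. Among the measured members, Slc2a3 and Gpi1 lay farther from 0 than Adm and Ddit4 but are not printed. The Gpi1 window held neither form of the core, and Slc2a3 had no entry.
Car9: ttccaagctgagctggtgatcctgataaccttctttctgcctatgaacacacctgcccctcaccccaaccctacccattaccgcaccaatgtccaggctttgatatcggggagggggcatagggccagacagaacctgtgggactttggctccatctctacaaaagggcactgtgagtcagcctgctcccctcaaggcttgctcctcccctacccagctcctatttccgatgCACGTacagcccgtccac
Adm: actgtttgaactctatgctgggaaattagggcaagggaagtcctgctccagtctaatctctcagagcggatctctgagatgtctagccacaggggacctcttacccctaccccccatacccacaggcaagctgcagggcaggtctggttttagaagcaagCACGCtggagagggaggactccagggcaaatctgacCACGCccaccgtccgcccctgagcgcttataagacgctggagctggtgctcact
Ddit4: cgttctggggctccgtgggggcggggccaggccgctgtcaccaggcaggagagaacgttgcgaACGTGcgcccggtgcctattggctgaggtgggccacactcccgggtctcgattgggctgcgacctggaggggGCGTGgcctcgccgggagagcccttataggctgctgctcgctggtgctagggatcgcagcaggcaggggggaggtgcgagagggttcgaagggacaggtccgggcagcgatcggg
Pgk1: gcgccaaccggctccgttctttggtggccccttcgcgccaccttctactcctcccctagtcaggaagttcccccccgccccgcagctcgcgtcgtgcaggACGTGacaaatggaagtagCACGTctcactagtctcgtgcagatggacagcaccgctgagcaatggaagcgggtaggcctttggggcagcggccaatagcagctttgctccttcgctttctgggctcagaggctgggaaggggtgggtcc
Ldha: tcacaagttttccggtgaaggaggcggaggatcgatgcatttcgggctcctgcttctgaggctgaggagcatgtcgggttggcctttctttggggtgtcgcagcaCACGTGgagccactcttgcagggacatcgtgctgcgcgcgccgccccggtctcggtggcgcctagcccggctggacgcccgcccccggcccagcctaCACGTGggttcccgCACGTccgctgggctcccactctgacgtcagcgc
The Car9 window (chr4:43506776-43507025, plus strand) held a single ACGTG, on the reverse strand, 18 to 14 bases before the start. The Adm window (chr7:110627407-110627656, plus strand) held GCGTG at 90 and at 54 bases before the start, both on the reverse strand, and no ACGTG. The Ddit4 window (chr10:59951771-59952020, minus strand) held ACGTG at 187 and GCGTG at 115 bases. The Pgk1 window (chrX:106186850-106187099, plus strand) held ACGTG at 150 and 131 bases. In the Ldha window (chr7:46845554-46845803, plus strand), which is the first of the starts listed for this gene, ACGTG was matched at 5 positions. Of these 4 came from a pair of CACGTG palindromes, and the fifth began 34 bases before the start. The window of the other Ldha start, not printed, held no ACGTG and a single GCGTG, at 59 bases.

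Signals below are processed spot intensities in arbitrary units, the control first and MEF2C-ASR second. A difference is MEF2C-ASR minus control in log2 signal, after each array was scaled to its 75th percentile, so that 1 stands for 2-fold. Across the 34 measured members the differences were small. 18 were above 0 and 16 below, where of all 16570 measured genes 7427 were above and 9143 below. The median of the members was 0.02 on the log2 scale, beside -0.03 over all measured genes. No member was at least 2-fold higher (1.74% of all genes were) and 1, Car9, was at least 2-fold lower (1.91% of all genes were). At 1.5-fold, 3 members were higher, namely Slc2a3, Gpi1 and Adm, where 4.46% of all genes were, and Car9 alone was lower, where 5.03% were. The other 30 members, 88.2% of those measured, lay within 1.5-fold, as did 90.4% of all genes. These last shares are close to each other. The error of a single spot was taken from 144 probes printed 10 times: the standard deviation of a difference from spotting was 0.21 for the 48 dimmest of them, 0.07 for the 48 of middle signal and 0.06 for the 48 brightest. Over all 144 probes it was 0.13, and the differences of 12 members were within that, as were those of 6857 of the 16570 measured genes. This error covers the spotting of an array and not the spread between cultures.

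**Figure D1:**
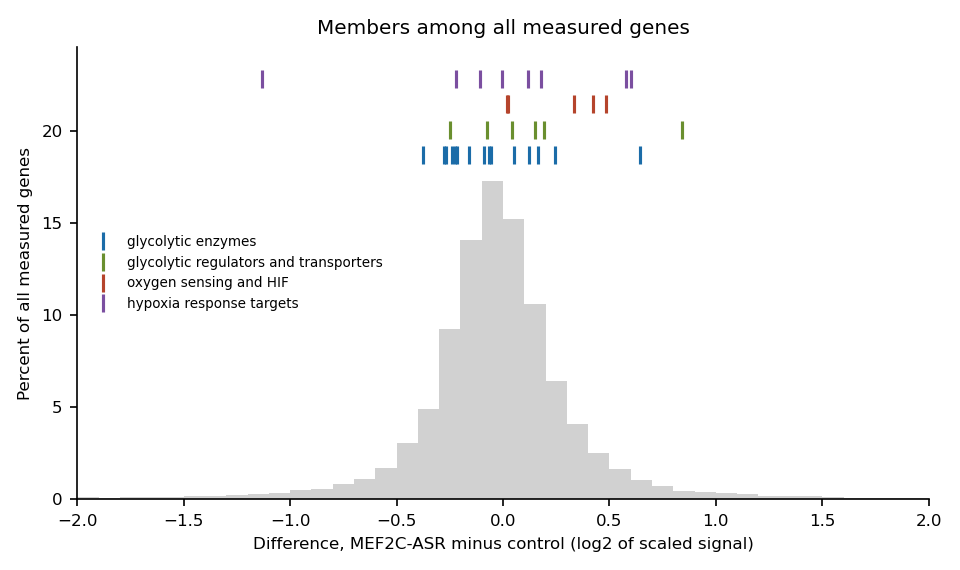
Grey bars give the percent of all 16570 measured genes in steps of 0.1 on the log2 scale of the difference, MEF2C-ASR minus control, and each coloured tick is 1 of the 34 measured members, in a line per role. Most ticks stand over the bulk of the genes, with Car9 (-1.13) apart on the left and Slc2a3 (0.84) on the right; genes beyond 2 on either side are not drawn.

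The scaling between the arrays matters for differences of this size. Scaling by the spike-in control spots moved the median of all genes from -0.03 to -0.17 and that of the members from 0.02 to -0.12, so that 12 members were then above 0 and 22 below. Of the 34 measured members 27 kept their sign under the 5 other scalings tried, 12 of them higher and 15 lower. The 7 that did not were Pfkp, Pgam1, Pfkfb3, Egln2, Vhl, Bnip3 and Ankrd37, and no direction is given for them. Read against the median of all genes, 19 members were above it and 15 below, and under each of these scalings every measured member kept its side. Scaling by the median, by probes above background or by spike-ins shifts every gene alike and cannot change a side. Only scaling by quantiles and removal of a trend with signal could have done so.

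The first steps of glycolysis, in which hexokinases trap glucose as its phosphate, gave small differences of both signs. Hk1, the widely expressed hexokinase, had 5 measured probes, and the brightest read 25279 in the control and 29864 with MEF2C-ASR. The others read 1866 and 2039, 1281 and 1373, 634.3 and 668.3, and 74.13 and 79.72. All 5 were higher, by 0.11 to 0.28 on the log2 scale, while the sixth (14.12 and 9.90) was not above background on either array. Hk2, the form most often tied to HIF and to growth, had signals of 27302 and 25585 (-0.06, about the spotting error). Hk3, the hexokinase typical of myeloid cells, read 29255 and 33785, a difference of 0.24. So Hk1 and Hk3 were slightly higher and Hk2 differed by about the spotting error.

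Gpi1, which converts glucose phosphate to fructose phosphate, was past 1.5-fold (1.56-fold higher) only as the mean of 2 unequal probes. The bright probe, printed 10 times with 8 spots used, read 217162 (spots from 207019 to 227244) in the control and 235915 (223142 to 245699) with MEF2C-ASR. It gave 0.16, and once scaled its spots ran up to 7.48 in the control and from 7.49 with MEF2C-ASR (log2 of signal over the 75th percentile), so that the ranges came close but did not overlap. The dim probe had a single spot of 95.28 in the control and 204.2 with MEF2C-ASR, a difference of 1.14. The call at 1.5-fold therefore rests on that dim spot.

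Phosphofructokinase is the main controlled step of glycolysis, and its 3 subunits were not alike in sign. The liver-type subunit Pfkl read 8640 in the control and 6493 with MEF2C-ASR, at -0.38 the lowest of the measured enzymes. The muscle-type Pfkm read 3409 and 2848, a difference of -0.22. The 3 probes of the platelet-type Pfkp gave 0.09 (4979 and 5159), 0.12 (1221 and 1295) and -0.05 (141.6 and 133.6). Pfkl and Pfkm were thus 1.30-fold and 1.17-fold lower, and Pfkp showed no difference that held under each scaling.

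Further along, aldolase cuts the sugar into trioses. The 2 probes of Aldoa, the main aldolase of muscle and blood cells, gave both signs, with signals of 269986 and 275149 for the first (0.06) and 338300 and 288521 for the second (-0.19). Aldoc, the brain-type enzyme, was lower by both probes, at 1912 and 1432 for the brighter (-0.38) and 336.4 and 290.1 for the dimmer (-0.18). Tpi1, which interconverts the trioses, read 84839 and 74122, a difference of -0.16. Aldoc and Tpi1 were thus modestly lower on the MEF2C-ASR array, and the Aldoa probes disagreed.

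Gapdh, which carries out the oxidation step, could be followed only through probes described as similar to it. Of these, 2 were named for copies in the files but list a Gapdh accession. They read 117867 and 112921 (-0.03) and 112468 and 111461 (0.02). All 13 measured probes of Gapdh or Gapdh-like copies lay between -0.13 and 0.04, with a median of -0.01. Near-identical copies cannot be told apart by such probes, but on this pair of arrays none of them moved far.

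The ATP-yielding and closing steps were lower in most cases. Pgk1, phosphoglycerate kinase, had a probe with all 10 spots used: the spots ran from 108443 to 118604 on the control array and from 89741 to 102653 on the MEF2C-ASR array. These ranges did not overlap, the difference was -0.22, and a second probe read 107545 and 90694 (-0.21). Spots of a probe share the RNA and the array, so this describes spotting alone and not the spread between cultures. Pgam1, phosphoglycerate mutase, read 107725 and 114176 (0.12), and turned below 0 with spike-in scaling. Eno1, the common enolase, read 7781 and 6418, a difference of -0.24.

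Pkm, which makes pyruvate, had probes at 49375 and 43830 (-0.14) and at 47475 and 44944 (-0.04), the second within the spotting error. Ldha, the lactate dehydrogenase subunit favoured in hypoxia, was lower by both probes. The first read 153083 and 130226 (-0.20) and the second 109424 and 84283 (-0.34). Ldha was thus 1.21-fold lower on average. The 4 measured probes described as Ldha-like copies were also lower, by -0.59 to -0.45, and the Tpi1-like probe by -0.25. Signal of copies and of the gene itself cannot be separated by these probes.

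**Figure D2:**
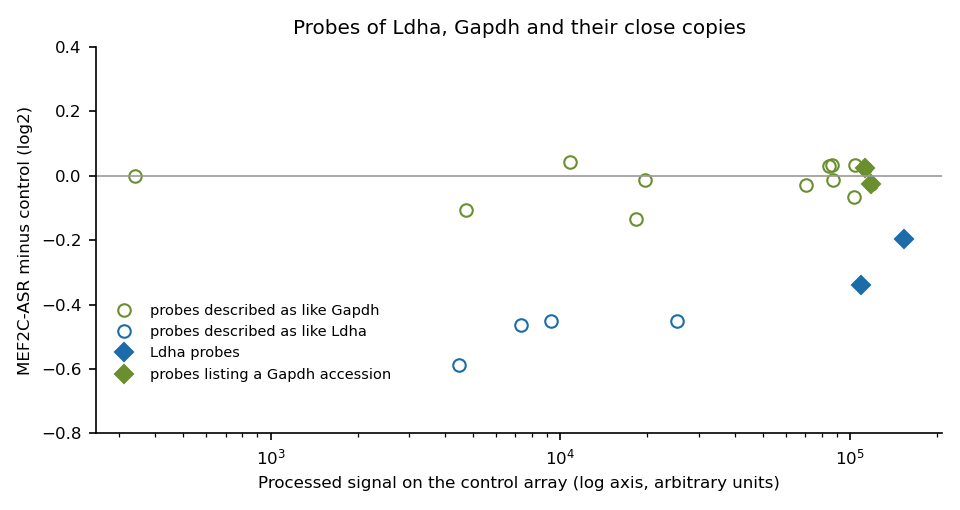
Each point is a probe, with its control signal on a log axis and its log2 difference, MEF2C-ASR minus control, on the vertical axis. Diamonds are the 2 Ldha probes and the 2 probes that list a Gapdh accession, circles the probes described as similar to either. The Gapdh points lie along 0 (-0.13 to 0.04) and every Ldha point lies below it (-0.59 to -0.20).

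The minor isoenzymes were at the edge of detection. Eno2, the neuronal enolase, read 7.94 in the control, which is not well above background, and 100.8 with MEF2C-ASR. Set against the lowest signal above background on the control array, it was 2.70-fold higher, taken as a bound. This bound is rough: that lowest level was -5.05 (log2 of scaled signal), and a Pfkfb3 probe at -4.97 there was still not well above background. A bound of at least 2-fold was reached by 3.77% of the 2200 genes that were above background on the MEF2C-ASR array alone. The second Eno2 probe (11.84 and 4.08) was not above background on either array, and with normexp, a model-based background correction, the bound was 0.80 on the log2 scale, under 2-fold. Ldhb, the other common lactate dehydrogenase subunit, was not well above background on the control array (19.91) but passed that limit with MEF2C-ASR (31.99), and the limit of detection allows no bound. In all, of the 15 measured enzymes 5 were above 0 and 10 below, with a median of -0.09, and with spike-in scaling 3 were above and 12 below, with a median of -0.23 where that of all genes was -0.17.

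**Figure D3:**
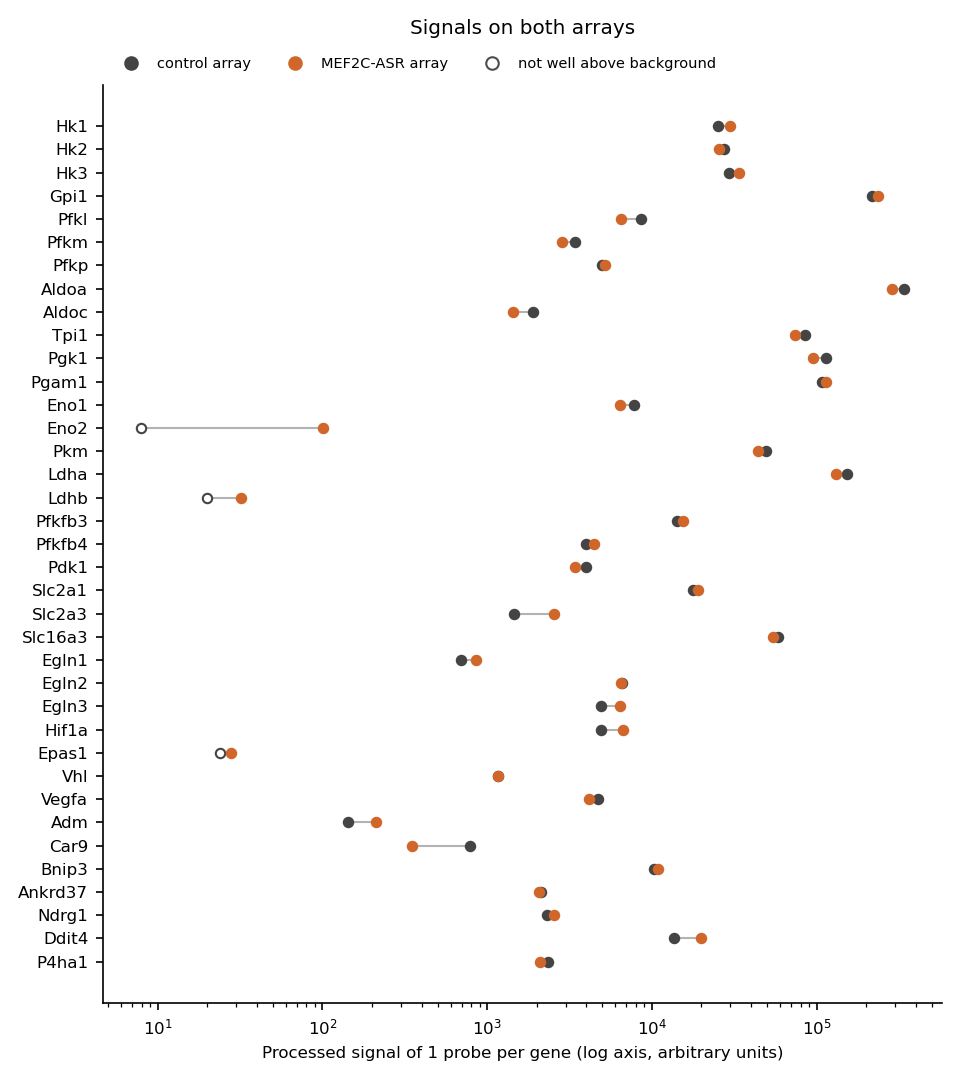
Processed signals of 1 probe per gene (the probe above background on most arrays, then the brightest) on the control array (grey) and the MEF2C-ASR array (orange), on a log axis; open circles are not well above background. Most pairs almost coincide. The widest gaps between filled pairs are those of Car9 (787.5 and 350.8) and Slc2a3 (1465 and 2559), and levels of different genes are not comparable because each probe binds with its own strength.

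Among the regulators and transporters the glucose transporter Slc2a3, a high-affinity carrier found in neurons and white blood cells, stood out. Its measured probe read 1465 in the control and 2559 with MEF2C-ASR, a difference of 0.84 or 1.79-fold higher, where spotting at this level gives 0.07. This probe is placed by the file at chr6:122764878-122764937, and the files name no build for probe positions. The 2 other probes of this name add little: 1 was not above background on either array, and the other, read at 7.87 and 26.47, is placed on chromosome 17 by the file and was above background on the MEF2C-ASR array alone. Slc2a1, the widely expressed glucose transporter and a classical HIF target, read 17651 and 19110 (0.15). The 2 transporters of glucose were thus both on the higher side, Slc2a3 by more. With spike-in scaling Slc2a1 fell to 0.01, within the spotting error of 0.06 at its level.

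Slc16a3, which exports lactate, read 58596 and 54285 (-0.07). Pdk1, a kinase that inhibits pyruvate dehydrogenase and is a known HIF target, was lower by both probes, at 3996 and 3433 (-0.18) and at 3013 and 2362 (-0.32). The enzymes that set the level of the bisphosphate that activates phosphofructokinase differed little. The bright Pfkfb3 probe read 14267 and 15537 (0.16), a dim one gave -0.08, and a further one was above background on the MEF2C-ASR array alone. Pfkfb4 read 3992 and 4447, a difference of 0.19. Of these 6 genes, 4 were above 0 and 2 below, with a median of 0.10, which became -0.05 with spike-in scaling.

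The oxygen sensing genes were the role with no measured member below 0 as reported. However, 2 of the 5 were below it with spike-in scaling or scaling to probes above background, and 1 when scaled by quantiles. Hif1a, the alpha subunit that oxygen regulates, read 4883 in the control and 6662 with MEF2C-ASR, 1.40-fold higher (0.48). Egln3, a prolyl hydroxylase that is itself induced by HIF, read 4924 and 6437, 1.34-fold higher (0.42). Egln1, the main oxygen sensor, was higher by both probes, at 695.8 and 860.1 (0.34) and at 240.3 and 293.9 (0.33). These 3 stayed above 0 under each scaling, Hif1a between 0.34 and 0.50, Egln3 between 0.28 and 0.44 and Egln1 between 0.19 and 0.36.

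Egln2 and Vhl were level. Egln2, the hydroxylase that HIF does not induce, read 6556 and 6476, which after scaling is 0.02. Vhl, the recognition subunit of the ligase that destroys hydroxylated HIF alpha, read 1170 and 1161 (0.03). Both were below 0 with spike-in scaling or scaling to probes above background, and Egln2 also when scaled by quantiles. Epas1, which encodes the second HIF alpha subunit, read 23.76 in the control, which is not well above background, and 27.97 with MEF2C-ASR, and its second probe was not above background on either. The median of the 5 measured genes was 0.33. It was 0.19 with spike-in scaling. The Egln3 spot was flagged for its local background, and without spots so flagged 4 genes were left, with a median of 0.18. All 5 lay above the median of all genes under each scaling, though only quantiles and removal of a trend with signal could have changed this. None of the 5 reached 1.5-fold.

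The hypoxia response targets were the most spread out of the roles, from -1.13 to 0.60. Car9, a membrane carbonic anhydrase and one of the most specific HIF targets, read 787.5 in the control and 350.8 with MEF2C-ASR, 2.19-fold lower (-1.13). It has a single probe with a single spot, placed by the file at chr4:43526965-43527024, and spotting at this level gives 0.07. With normexp it was -0.99, just under 2-fold, and with spike-in scaling -1.27. Car9, whose window printed above holds a single ACGTG next to the start, was thus the member farthest from 0, on the lower side.

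On the higher side stood Adm and Ddit4. Adm, which encodes the vasodilator peptide adrenomedullin, was dim, at 142.4 and 210.5, 1.52-fold higher (0.60), with a spotting error of 0.21 at this level. With spike-in scaling it gave 0.46 and with normexp 0.50, both under 1.5-fold. Ddit4, an inhibitor of the growth kinase mTOR that HIF and other stress signals induce, was bright, at 13652 and 19896. This is 1.49-fold higher (0.58), just short of 1.5-fold, with a spotting error of 0.06.

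The remaining targets lay closer to 0. Vegfa, the growth factor of blood vessels, was lower by its 3 probes, at -0.24, -0.29 and -0.13. Its probe printed 10 times had 9 spots used, from 4531 to 4926 on the control array and from 3795 to 4039 on the MEF2C-ASR array, and these ranges did not overlap. As for Gpi1 and Pgk1, this describes spotting alone. The share of all probes printed 10 times whose ranges do not overlap was not counted. P4ha1, a collagen prolyl hydroxylase, was lower by both probes (-0.12 and -0.09). Bnip3, which directs mitochondria to autophagy, read 10354 and 10957 (0.12), and Ndrg1, a stress-induced protein, read 2311 and 2549 (0.18). Ankrd37, a small HIF target, read 2134 and 2074, which after scaling is no difference (-0.00).

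**Figure D4:**
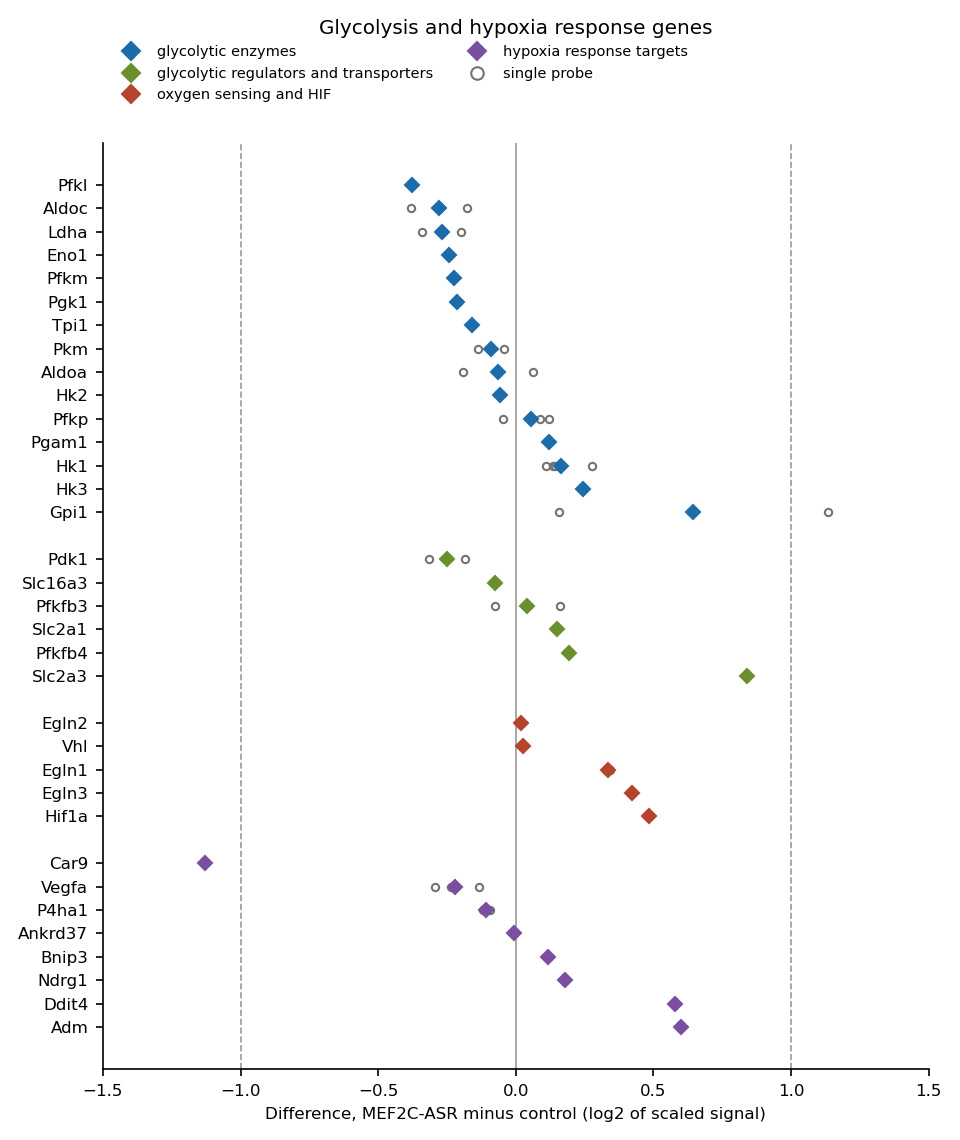
Difference of each of the 34 measured members, MEF2C-ASR minus control, on the log2 scale of the scaled signal; diamonds are gene means coloured by role, circles the single probes of genes with several, dashed lines mark 2-fold. Car9 is the only member beyond a dashed line, the wide gap between the Gpi1 probes (0.16 and 1.14) is visible, and the 5 oxygen sensing genes lie from 0.02 to 0.48.

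Genes known as HIF targets were therefore found on both sides. Slc2a3, Adm, Ddit4 and Egln3 were higher while Car9, Pdk1, Ldha, Vegfa, Pgk1 and Eno1 were lower, and each of these 10 kept its sign under the 5 scalings. They are examples and not a tally of HIF targets. Slc2a1 and Ndrg1 were also higher, and P4ha1 and Hk2 also lower, under each of these scalings. However, Slc2a1 (0.01) and Ndrg1 (0.04) with spike-in scaling, and Hk2 (-0.04) with median scaling, were within the spotting error at their level. The members with ACGTG, the A form of the core, in a promoter window had a median of -0.00 (21 genes, 10 above 0 and 11 below) and those without it 0.03 (11 genes, 6 above and 5 below). Over all measured genes with a promoter entry, the medians were -0.03 with it and -0.03 without it. With either form counted, 29 measured members held one, with a median of -0.00, and only 3 held none, which leaves little to set against them. Over all genes the medians were -0.03 with either form and -0.03 without.

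Related genes outside the 38 were read from lists chosen by pathway. Of 34 other HIF target genes 24 were measured, 14 above 0 and 10 below, with a median of 0.05. None was 2-fold apart. The 2 farthest from 0 were Hmox1, the haem-degrading oxygenase, at 2350 and 4231 (0.88), and Bhlhe40, a transcriptional repressor, at 3009 and 4555 (0.63). Of 15 other genes of oxygen sensing and the HIF pathway 14 were measured, with 9 above 0, 5 below and a median of 0.10. The farthest from 0 were Siah2, a ubiquitin ligase that acts on the Egln proteins (-0.31), and the chaperone Hsp90ab1 (-0.27). Arnt, the partner of the HIF alpha subunits, was at -0.07. These counts depend on the scaling. With spike-in scaling the other HIF targets stood at 9 above 0 and 15 below, and the pathway genes at 3 above and 11 below. Their medians were then -0.09 and -0.04, where that of all genes was -0.17.

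Of 33 other genes of glycolysis and pyruvate 28 were measured, 10 above 0 and 18 below, with a median of -0.10. A single gene was 2-fold apart, the glucose transporter Slc2a6, at 2770 and 5465 (1.02, or 2.02-fold higher), which was 0.98 when scaled to probes above background or by quantiles and 0.88 with spike-in scaling. Its spot was flagged for its local background, and without spots so flagged it was not measured and no gene of this list was 1.5-fold apart. The pentose phosphate pathway, which branches off at glucose phosphate, had 6 of 7 genes measured, between -0.09 and 0.13. The farthest from 0 were Rpe (0.13) and Taldo1 (0.12), both below 0 with spike-in scaling. All 16 genes of the tricarboxylic acid cycle were measured, and 14 were below 0 and 2 above, with a median of -0.09, a lowest value of -0.25 (Suclg2) and then Idh3b at -0.21. The differences of 13 of the 16 were within 0.13, the spotting error over all levels. Relative to the median of all genes, 12 of the 16 were below and 4 above. The glycolytic enzymes stood at 10 below and 5 above by the same measure.

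**Figure D5:**
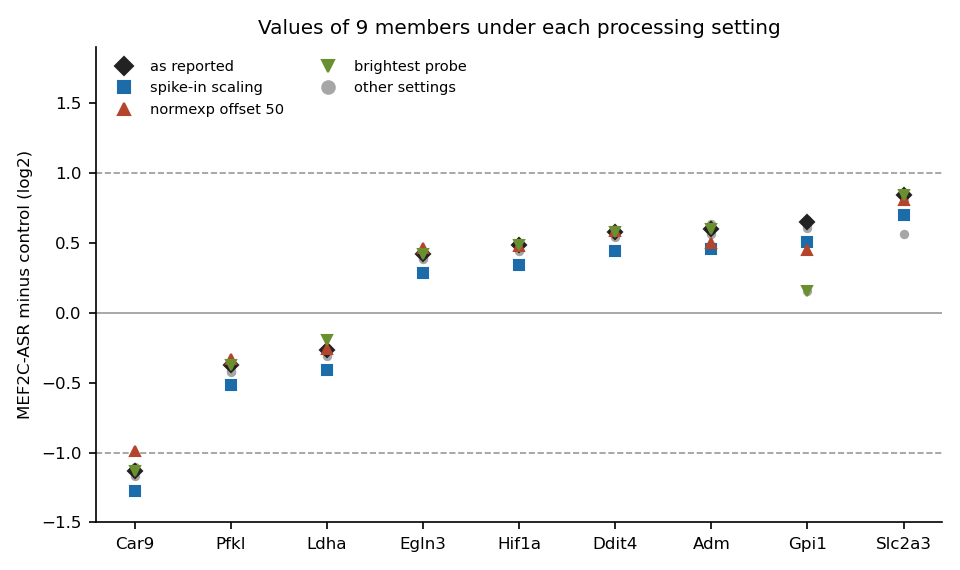
Values of 9 members under each processing setting, as the log2 difference MEF2C-ASR minus control; dashed lines mark 2-fold. Each keeps its sign in every setting drawn. Spike-in scaling (blue squares) lies below the value reported for each gene, Gpi1 drops to 0.16 when its brightest probe stands for it, and Car9 reaches -0.99 with normexp.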

How the data were processed

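The deposited scanner files hold spot intensity values of 2 one-colour arrays, made by the authors with Agilent Feature Extraction 9.5.1.1, per the file headers, which also place both on the same slide. The software subtracted background and flagged outlier, saturated and dim spots. The arrays had not been normalized to each other, and the value table of the series repeated the deposited intensities (largest relative difference 0). The log2 of each signal was taken, less that of the 75th percentile of the array's non-control spots (1272 on the control array, 1240 on the MEF2C-ASR array). Outlier spots were left out, 202 and 201, and spots of a probe were averaged. No spot was saturated. Probes well above background on both arrays were averaged per gene. A gene counted as 2-fold or 1.5-fold apart only where its probes shared the sign. A gene above background on 1 array was set against the lowest level above background on the other, -5.05 on the control array.

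Every member is named, with signals in full for the enzymes and for members at least 1.5-fold apart. Of each further list, genes at least 2-fold apart or otherwise the 2 farthest from 0 are named, and Arnt was added after its value was seen. The members and lists were chosen with earlier results of these data known. Values were recomputed under 14 alternatives, and the calculation was tested on simulated data. Tools were Python 3.11.15, R 4.3.3 and limma 3.58.1.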

Additional observations from a re-analysis of the deposited data

How the results depend on the processing

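The median difference of the members was 0.02 as reported and -0.12 with spike-in scaling. Under the other alternatives it lay between -0.02 and 0.04. No member was at least 2-fold higher under any of the 14 alternatives, and 1 (Car9) was at least 2-fold lower under each of them except normexp, which left 0. The count at least 1.5-fold higher was 3 as reported. It was 4 with median scaling (Ddit4 added), 2 with scaling to probes above background, with brighter probes alone or with the brightest probe per gene. Under spike-in scaling or normexp it was 1 (Slc2a3). Of 472 values of single members over the alternatives, 433 moved by less than 0.13, the spotting error over all levels, and 39 moved by more. No member past 1.5-fold changed sign. Among the 39, Pfkp, Pgam1, Pfkfb3, Egln2, Vhl and Bnip3 turned from above 0 to below it with spike-in scaling. Without spots flagged for local background, Egln3 and Ankrd37 were not measured. Spike-in scaling accounts for 34 of the 39 by its own construction, as it shifts every gene alike. Gpi1 went from 0.65 to 0.16 with its brightest probe or with brighter probes alone, and Slc2a3 from 0.84 to 0.56 with its dim probes kept. No paired analysis was possible because each group has 1 array. A single pool per group limits every value here, and dim probes such as those of Adm, Eno2, Ldhb and Epas1 are limited by background.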
